A study of Mus musculus with 7 samples.

Results

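Collagens are the triple-helical proteins of the extracellular matrix, and each chain has its own gene, named Col with a type number, the letter a and a chain number. The collagen genes were taken as all genes whose symbol follows that pattern in the deposited gene lists, 44 of 31053 genes, a rule that uses no measured value. They comprised 11 fibrillar genes, 6 type IV genes of the basement membrane network, 2 multiplexins (Col15a1 and Col18a1), 6 type VI genes of the beaded filaments, 9 fibril-associated genes, 3 short-chain genes (types VIII and X), 4 transmembrane genes and 3 others. The data were 7 droplet single-cell RNA libraries from untreated wild-type mice of the strain C57BL/6J, 1 library per age (E, embryonic day, and P, postnatal day), with E11.5 labelled gonad and the ovary at E12.5 and E14.5, at E16.5 and E18.5, and after birth at P1 and P5, and per the study's text a library pooled the cells of several gonads or ovaries. The tissue was dissociated with trypsin for 20 min at E11.5 and E12.5, 40 min at E14.5 and E16.5, 60 min at E18.5 and 80 min at P1 and P5. Because each age was 1 library without replicates, ages were not compared in pairs, and age, library and dissociation time cannot be told apart. The question was which collagens each cell class of the forming ovary carried, fibrillar against basement membrane types in particular, and how their levels ran with age.

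In tissues in general, fibrillar collagens (types I, II, III, V and XI) assemble into the fibrils of connective tissue, with type V and type XI chains inside or at the surface of fibrils made mainly of type I, III or II. Type IV chains form the sheet-like network of basement membranes, where Col4a1 and Col4a2 make up the form found in nearly all of them and Col4a3, Col4a4 and Col4a5 another form best known from the kidney glomerulus. Multiplexins are proteoglycan collagens of basement membrane zones, and type XVIII releases the fragment endostatin. In the ovary, basement membranes surround vessels, the surface epithelium and each follicle, whereas fibrils lie in the stroma.

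The collagen genes are spread over the genome, and the 6 type IV genes lie in 3 pairs that start close together and are read in opposite directions. In GRCm38, the build the files use, Col4a1 (chromosome 8, 11198423 to 11312826, minus strand) and Col4a2 (11312805 to 11449287, plus strand) share 22 bases at their starts. Col4a4 (chromosome 1, 82448423 to 82586849, minus strand) and Col4a3 (82586921 to 82722059, plus strand) leave 71 bases between their starts, and Col4a6 and Col4a5 on chromosome X leave 1308. Upstream sequence (RefSeq, GRCm38.p6 coordinates) is given for 3 genes that differ between classes in the values that follow, Col3a1, high in stroma (chr1:45311288-45311537, plus strand), Col8a1, higher in pregranulosa cells than in stroma (chr16:57754738-57754987, minus strand) and Col15a1, higher in endothelium than in stroma (chr4:47207762-47208011, plus strand), each as the 250 bases before the RefSeq start, and for the whole gap between Col4a4 and Col4a3 (chr1:82586850-82586920, minus strand, in the direction of Col4a4). Capitals mark matches on either strand to TATAAA, the usual core of the box named after it, or to GGGCGG, the core of the GC box, and the box named CCAAT was searched as well.
Col3a1: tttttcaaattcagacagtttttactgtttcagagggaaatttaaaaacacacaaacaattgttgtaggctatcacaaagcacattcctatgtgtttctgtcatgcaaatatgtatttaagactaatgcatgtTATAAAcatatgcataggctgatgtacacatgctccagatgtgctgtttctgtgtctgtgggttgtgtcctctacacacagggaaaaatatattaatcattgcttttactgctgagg
Col8a1: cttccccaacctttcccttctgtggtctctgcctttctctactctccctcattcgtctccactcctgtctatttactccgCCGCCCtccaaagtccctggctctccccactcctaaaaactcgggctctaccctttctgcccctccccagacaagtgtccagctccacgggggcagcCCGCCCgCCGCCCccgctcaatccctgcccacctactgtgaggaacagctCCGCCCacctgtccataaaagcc
Col15a1: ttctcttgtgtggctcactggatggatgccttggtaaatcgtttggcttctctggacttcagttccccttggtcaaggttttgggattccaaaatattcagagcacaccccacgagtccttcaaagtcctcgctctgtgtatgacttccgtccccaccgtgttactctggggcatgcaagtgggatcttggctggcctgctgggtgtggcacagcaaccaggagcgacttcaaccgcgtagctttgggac
Col4a4 to Col4a3: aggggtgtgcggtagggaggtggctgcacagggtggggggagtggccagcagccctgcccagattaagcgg
Col3a1 held 1 TATAAA 117 to 112 bases before its start, Col8a1 held 4 GGGCGG matches, each read as CCGCCC, between 170 and 18 bases before its start, and Col15a1 and the gap between Col4a4 and Col4a3 held none of the 3 motifs. A window of this kind was at hand for 35 of the 44 genes, of which 5 held TATAAA, 13 CCAAT and 21 GGGCGG, against 12.4%, 33.8% and 32.7% of all 32851 promoter windows. Such a match describes the letters of the window and is not evidence of a bound factor.

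Cells were placed in classes by at least 3 UMIs (unique molecular identifiers, each counting 1 captured transcript) summed over the gate genes, namely Pdgfra and Nr2f2 for stroma, Upk3b for surface epithelium, Wnt6 and Kitl for pregranulosa cells (the somatic precursors of granulosa cells), Cdh5 for endothelium and Rgs5 for pericytes, with Ddx4 and Dazl for germ cells. The study describes Wnt6-positive cells at E11.5 as likely precursors of both Sertoli and pregranulosa cells, and names its clusters at P5 granulosa cells. The name pregranulosa stands here for the Wnt6 and Kitl gate at every age. Trends with age in that gate can therefore run over cells that the study names differently. The gate also does not separate the bipotential and epithelial pathways of pregranulosa cells that the study describes at each age from E12.5 to P5. In its epithelial cluster at E12.5 the study reports much lower levels of bipotential genes, among which it counts Wnt6 and Kitl. The part of each pathway in the gated cells was not tested. Cells in several gates were left out, except as follows. The Cdh5 gate allowed the whole stroma gate (Pdgfra and Nr2f2) and the whole pregranulosa gate (Wnt6 and Kitl). The Rgs5 gate allowed the stroma gate. Of 52542 called cells 50823 had at least 200 genes, with 3848 to 11060 cells and 31960736 to 124390521 UMIs per library. The classes held 9831 stromal, 13113 pregranulosa, 433 endothelial, 393 epithelial, 898 Rgs5 and 4387 germ cells. UMIs were summed by library and class, and sums under 20 cells were not used, so that the epithelium had no value at E18.5 (11 cells), Rgs5 cells none at E14.5 (7 cells) and germ cells none at E11.5 (9 cells). Of markers that were not gate genes, each class held 5 of 5 (epithelium 4 or 5 of 5) with at least 1 UMI in every library. That count does not tell classes apart, since stroma also held 5 of 5 pregranulosa and 5 of 5 pericyte markers. Levels are given as CPM (UMIs of the gene per 1000000 UMIs of the sum). In their own class the pregranulosa, endothelial, epithelial and pericyte lists summed to 386 to 2021, 2000 to 3006, 189 to 2426 and 700 to 2915 CPM. In stroma these lists summed to 140 to 412, 9.92 to 72.4, 4.30 to 47.5 and 193 to 774 CPM, and the stromal list to 179 to 1062 CPM. The E11.5 Rgs5 cells had only 8.51 CPM of Cspg4 and 5.08 of Kcnj8 against 120 and 724 at P1. Haemoglobin transcripts, which these classes do not make, summed to 2737 to 9216 CPM in stroma and 715 to 12060 in pregranulosa cells. They summed to 714 to 20370 CPM in endothelium, 752 to 22540 in epithelium and 705 to 5552 in Rgs5 cells. Their source, such as free RNA in the droplets, was not tested.

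The E16.5 library stood apart from the others. It shared 0 to 3 cell barcodes with any other library, whereas the other 6 shared 20 to 131 pairwise, and it had the highest total of UMIs. Among the collagen genes with a mean over the libraries, E16.5 included, of at least 10 CPM in stroma, 19 of 27 (70.4%) were highest in that library. Of all genes at that level 29.9% were. Counts of calls are therefore given with and without it, as are the upper ends of ranges in stroma that it sets. Shares over all genes were taken only from the fits with all libraries.

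Of the 44 collagen genes, 35 reached 10 CPM in at least 1 class of 1 library and 9 did not. Those 9 (Col5a3, Col10a1, Col11a2, Col17a1, Col19a1, Col20a1, Col22a1, Col24a1 and Col28a1) stayed at or below 6.03 CPM. Since a UMI marks 1 captured transcript end, levels were not divided by gene length. Intervals on single values are 95% exact Poisson or binomial intervals and cover counting error only.

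**Figure D1:**
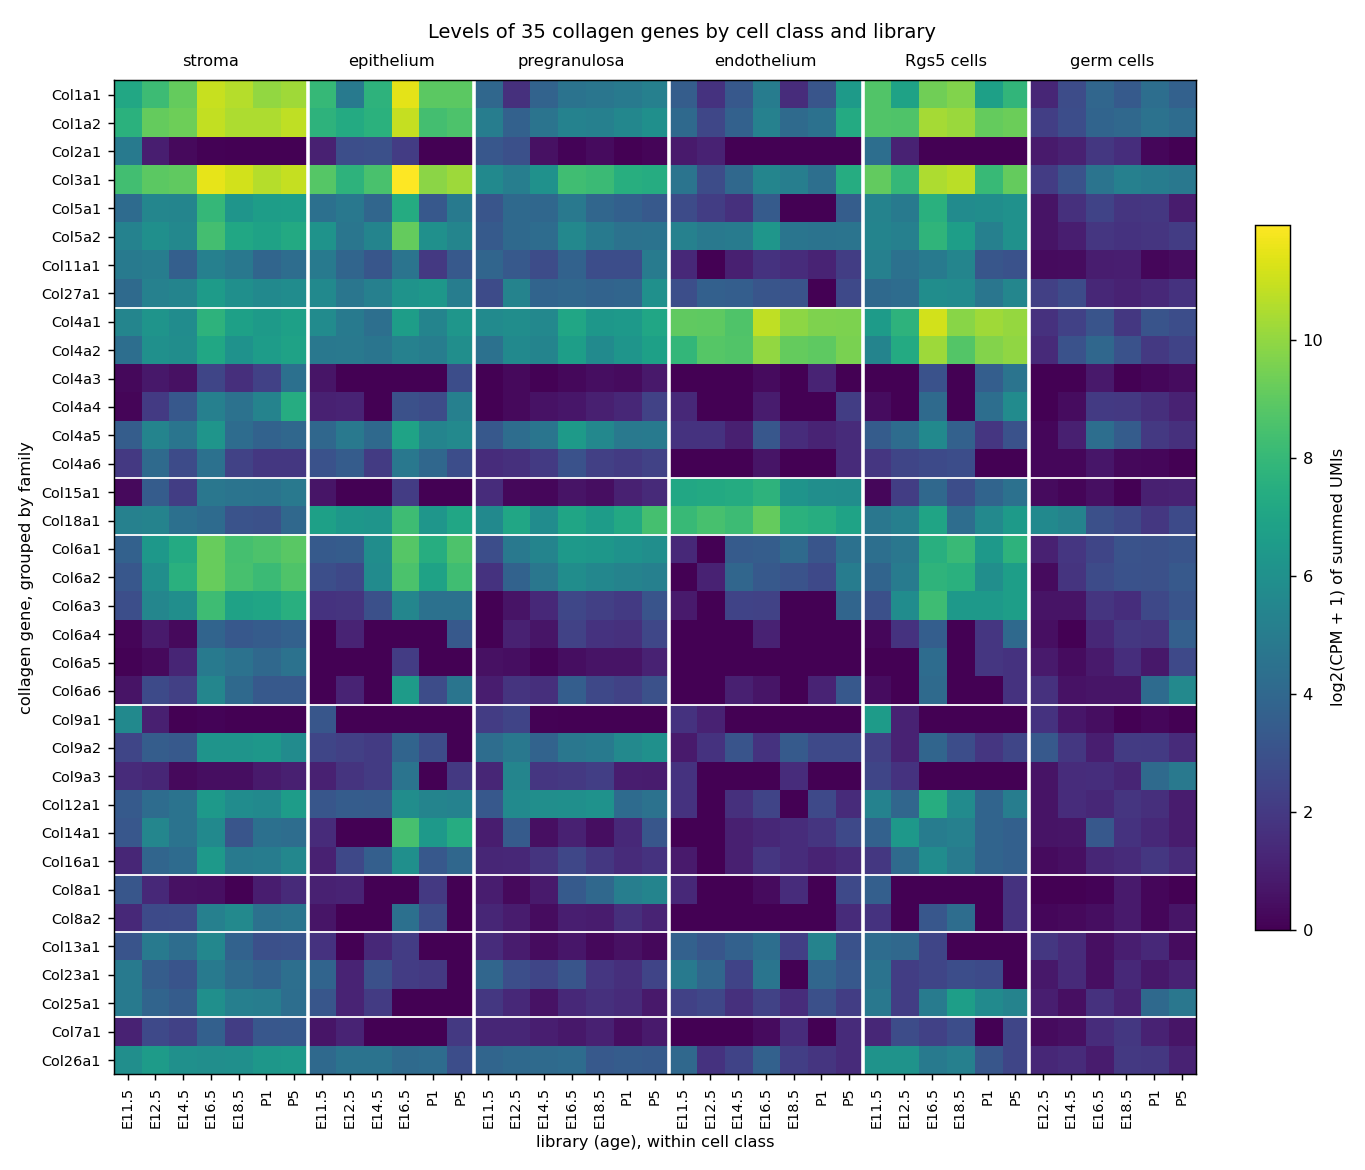
Heat map of the levels of the 35 collagen genes that reached 10 CPM, as log2(CPM + 1) of the UMIs summed in each cell class (blocks of columns) and library (columns within a block), with white lines between families. Within the stroma block Col1a1, Col1a2 and Col3a1 are brightest (up to 2962 CPM), and within the endothelium block Col4a1 and Col4a2 (up to 1796 CPM).

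Types I and III were the leading collagens of stroma. Col3a1 (ENSMUSG00000026043, chromosome 1, 45311538 to 45349706) was at 323, 489, 526, 2962, 2245, 1569 and 1896 CPM in stroma from E11.5 to P5 in order of age, and ranked 459 among all genes at E11.5 and 59 at E16.5. Col1a1 (ENSMUSG00000001506) was at 141, 289.7, 552, 2009, 1587, 1048 and 1202 CPM, and Col1a2 (ENSMUSG00000029661) at 201, 554, 637, 1884, 1431, 1426 and 1816 CPM. In all 3 genes the libraries from E16.5 on lay above the 3 younger ones. Type I collagen is built from more Col1a1 than Col1a2 chains, and in stroma the ratio of Col1a1 to Col1a2 UMIs ran from 0.523 at E12.5 to 1.11 at E18.5. A Col1a1 UMI was present in 58.1% to 98.7% of stromal cells, and in 22.4% to 91.9% after each cell had been thinned to 2000 UMIs. The background for these shares was taken from germ cells, on the assumption, not tested, that they make no type I collagen. Of germ cells 3.21% to 45.0% had a Col1a1 UMI, and 0% to 5% after thinning. Median depths were 5777 to 11160 UMIs per stromal cell and 12034 to 60272 per germ cell. Since germ cells were deeper, their shares need not hold as the background of shallower classes.

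The minor fibrillar chains were lower. Col5a2 was at 38.1 to 338 CPM in stroma (median 119, highest without E16.5 152.9), and Col5a1 at 17.4 to 249 CPM (highest without E16.5 103.6). Col27a1, a fibrillar chain of cartilage and other tissues, stayed at 16.8 to 94.6 CPM and Col11a1 at 11.48 to 35.4 (highest without E16.5 60.1 and 32.2). The cartilage collagens Col2a1 and Col9a1 were present in the E11.5 stroma at 28.3 CPM (1232 UMIs) and 50.7 CPM (2208 UMIs), and were at or below 1.06 CPM in the 6 later stromal sums, where a count of 0 allows up to 3 UMIs. Rgs5 cells at E11.5 carried both as well, at 18.7 and 92.0 CPM.

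Outside the stroma fibrillar transcripts were lower in pregranulosa cells and endothelium. Col1a1 was at 2.16 to 35.4 CPM in pregranulosa cells and at 1.87 to 89.7 CPM in endothelium, so that neither range reached the lowest stromal library (141 CPM). Against stroma the fitted log2 difference of Col1a1 was -5.64 ± 0.55 (SE) in pregranulosa cells (edgeR adjusted p = 2.84e-09) and -5.62 ± 0.60 in endothelium (edgeR adjusted p = 1.26e-08), about 49.8 and 49.0 times lower. These pregranulosa levels were near those of germ cells, where Col1a1 was at 1.41 to 19.0 CPM. Col3a1 was at 33.8 to 307 CPM in pregranulosa cells (281 at most without E16.5), with a log2 difference from stroma of -3.30 ± 0.35 (edgeR adjusted p = 1.24e-08). In endothelium it was at 5.94 to 171 CPM, with a log2 difference of -5.01 ± 0.41 (edgeR adjusted p = 7.64e-11). Both comparisons use the same stromal sums, and the difference between them was not tested. The highest endothelial values came from P5, with 89.7 CPM of Col1a1 (51 UMIs), in 8.57% of 35 cells, and 171 CPM of Col3a1 (97 UMIs). In that sum 4 of the 5 stromal markers had UMIs (39.2 to 86.9 CPM for the list over the endothelial sums), Gli1, Cspg4 and Pdgfrb were at 0 and Pdgfra was at 3.52 CPM, and their part in these values was not tested.

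Over all collagen families, 34 of the 44 genes passed the low-count filter of the class comparisons, and the other 10 were too low to test. In pregranulosa cells against stroma 2 were called higher and 24 lower (edgeR, adjusted p under 0.05 over all genes and at least 2-fold), against 12.1% higher and 12.52% lower among all 12536 genes tested. In endothelium against stroma 4 were called higher and 25 lower, against 11.8% and 15.1%. The median log2 difference of the 34 genes was -2.37 in pregranulosa cells and -3.77 in endothelium, beside 0.01 and -0.09 over all genes. Among the 8 fibrillar genes tested, 7 were lower in each of the 2 classes, the exception being Col2a1 in both. Without the E16.5 library the counts were 2 and 20 for pregranulosa cells and 4 and 24 for endothelium.

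**Figure D2:**
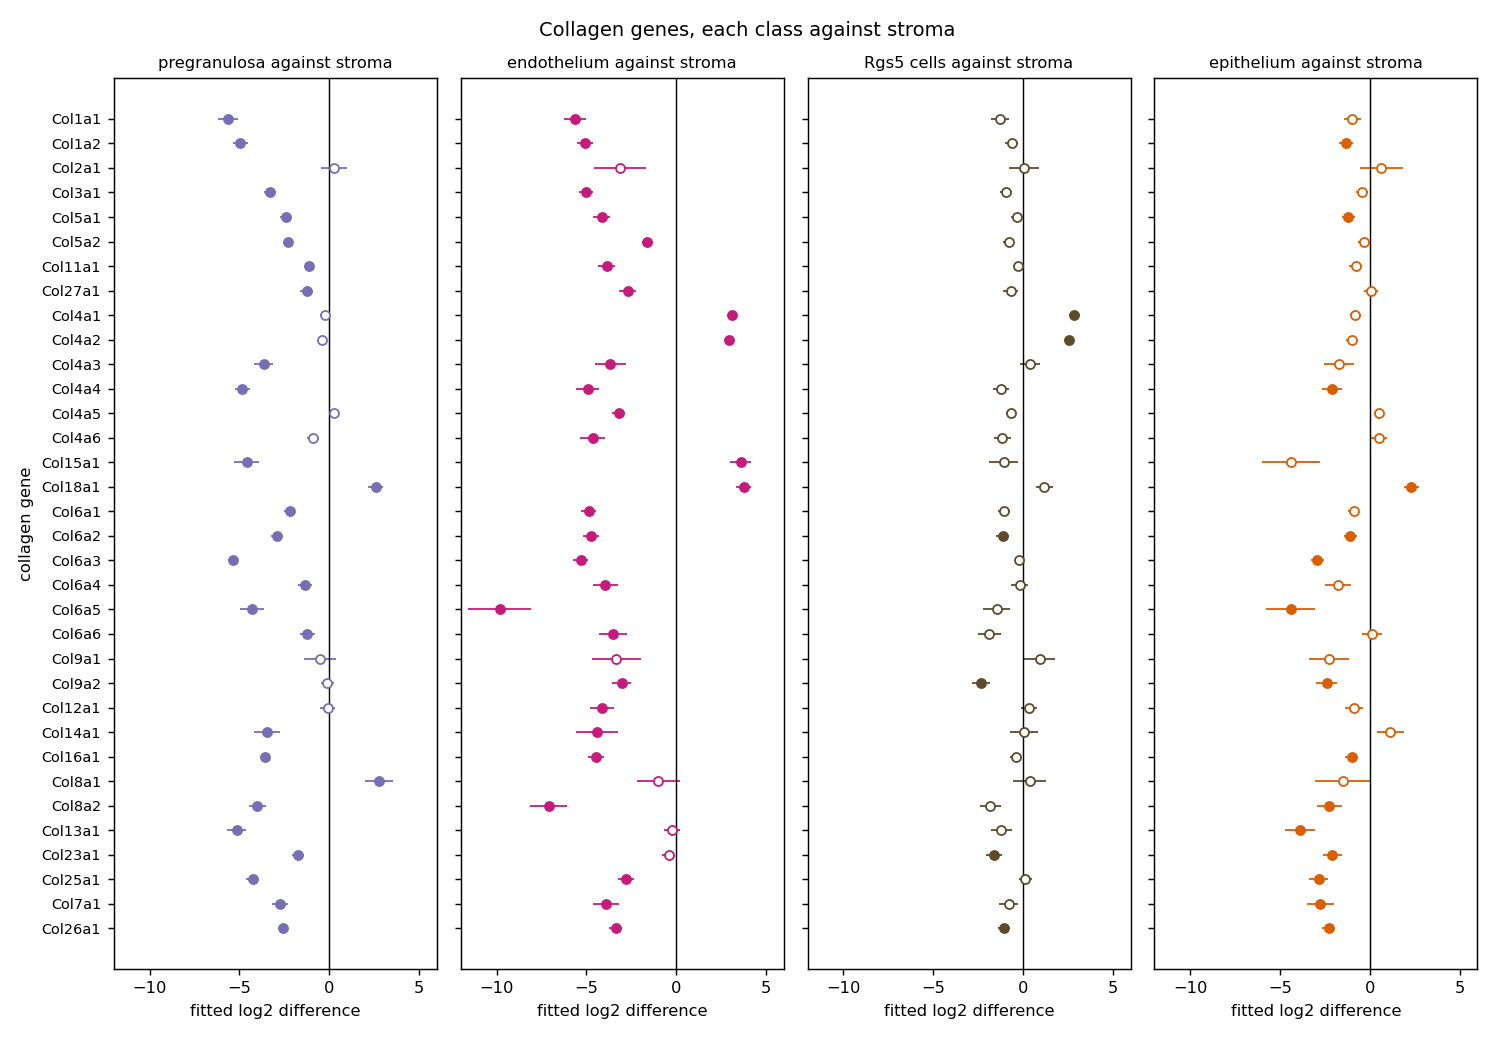
Fitted log2 difference of each of the 34 collagen genes tested (vertical axis) in 4 cell classes against stroma, 1 panel a class, with bars of 1 SE, filled points where the gene was called and open points where it was not. Col4a1, Col4a2, Col15a1 and Col18a1 lie at 2.97 to 3.78 in the endothelium panel, and the other filled points of that panel lie between -9.83 and -1.61.

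Type IV collagens divided by chain. Col4a1 in endothelium was at 520.3, 502, 406, 1796, 960.3, 789 and 765 CPM from E11.5 to P5, and Col4a2 at 244, 444, 414, 1032, 554, 508 and 748 CPM. In stroma Col4a1 was at 42.9, 71.5, 55.4, 209, 109, 90.7 and 111 CPM, and the 2 classes did not overlap for either gene. The fitted log2 difference was 3.12 ± 0.29 for Col4a1 (edgeR adjusted p = 8.43e-10) and 2.97 ± 0.28 for Col4a2 (edgeR adjusted p = 1.52e-09), about 8.67 and 7.82 times higher in endothelium. A Col4a1 UMI was present in 88.5% to 100% of endothelial cells, and in 2.89% to 21.7% of germ cells. Pregranulosa cells did not differ from stroma beyond the spread for Col4a1 (46.8 to 133 CPM, log2 difference -0.24 ± 0.27, edgeR adjusted p = 0.479) or Col4a2 (log2 difference -0.37 ± 0.27, edgeR adjusted p = 0.256).

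Col4a3 and Col4a4, whose starts face each other across the 71 bases printed, were found in stroma and Rgs5 cells. Col4a4 was at 0.115, 3.10, 8.83, 36.5, 22.0, 39.9 and 169 CPM in stroma from E11.5 to P5, whereas it was at 0 to 4.09 CPM in pregranulosa cells and 0 to 3.52 CPM in endothelium. The share of stromal cells with a Col4a4 UMI was 0.141% at E11.5 and 52.2% at P5, beside 0% to 6.67% of germ cells. Col4a3 was at lower levels in stroma, 0.184 CPM at E11.5 and 20.0 CPM at P5. Rgs5 cells had 0 to 23.2 CPM of Col4a3 and 0 to 53.4 CPM of Col4a4, both highest at P5, and did not pass the test against stroma (log2 difference 0.38 ± 0.56, edgeR adjusted p = 0.807, and -1.21 ± 0.46, edgeR adjusted p = 0.112). In Upk3b cells alone Col4a4 was lower than in stroma (-2.10 ± 0.57, edgeR adjusted p = 0.0118) and Col4a3 did not pass (-1.71 ± 0.85, edgeR adjusted p = 0.187). The ratio of Col4a4 to Col4a3 UMIs in stroma was between 4.56 and 20.0 in the 6 libraries from E12.5 on. Col4a3 and Col4a4 were lower than in stroma in pregranulosa cells (log2 difference of Col4a4 -4.83 ± 0.42, edgeR adjusted p = 3.96e-10) and in endothelium (-4.92 ± 0.65, edgeR adjusted p = 4.00e-07). Col4a5, the partner chain of both, was instead at 10.6 to 74.6 CPM in stroma (at most 41.6 without E16.5) and at 8.96 to 91.7 CPM in pregranulosa cells (at most 46.6 without E16.5). Averaged over libraries it did not pass the test between these classes (log2 difference 0.27 ± 0.22, edgeR adjusted p = 0.345). Such an average does not show like levels at each age, and the slope of Col4a5 with age differed between the classes, as given below. In endothelium Col4a5 was lower than in stroma (-3.18 ± 0.37, edgeR adjusted p = 4.35e-08).

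Both multiplexins were higher in endothelium than in stroma, and Col18a1 was also higher in pregranulosa cells and in Upk3b cells alone (73.1 to 299 CPM). In Rgs5 cells Col18a1 was at 18.1 to 127 CPM and did not pass the test against stroma (log2 difference 1.20 ± 0.46, edgeR adjusted p = 0.117). Col15a1 (chromosome 4, 47208161 to 47313167) was at 142, 153, 162, 211, 72.7, 59.3 and 58.1 CPM in endothelium and at 0.253 to 27.7 CPM in stroma, without overlap, and its log2 difference was 3.61 ± 0.60 (edgeR adjusted p = 1.46e-05). In pregranulosa cells it was nearly absent, at 0.149 to 1.89 CPM. Col18a1 (chromosome 10, 77052178 to 77166548) was at 268, 352, 293, 556, 198, 174 and 121 CPM in endothelium, at 49.97, 135, 54.8, 132, 96.6, 148 and 345 CPM in pregranulosa cells, and at 37.5, 39.7, 20.3, 17.1, 7.34, 6.70 and 15.2 CPM in stroma. Neither endothelium nor pregranulosa cells overlapped stroma for this gene, although germ cells carried it too, at 50.7 CPM at E12.5 and 39.6 CPM at E14.5 and at or below 6.64 CPM later. Its log2 difference against stroma was 3.78 ± 0.42 in endothelium (edgeR adjusted p = 2.47e-08) and 2.59 ± 0.41 in pregranulosa cells (edgeR adjusted p = 6.89e-06).

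Summed over families, stroma and endothelium stood far apart in the ratio of fibrillar to type IV UMIs. The ratio was 10.52, 7.70, 12.2, 15.6, 25.0, 17.6 and 12.0 in stroma from E11.5 to P5 and 0.132, 0.0601, 0.100, 0.0730, 0.0578, 0.0557 and 0.303 in endothelium. On the log2 scale these were means of 3.75 ± 0.55 (SD, n = 7 libraries) and -3.44 ± 0.89 (SD, n = 7). Pregranulosa cells lay between the 2 classes at 1.06 to 2.22, with a mean log2 ratio of 0.58 ± 0.33 (SD, n = 7), and overlapped neither. Without E16.5 the 3 means were 3.72, -3.38 and 0.60. When Col15a1 and Col18a1 were counted with the basement membrane types, the pregranulosa mean turned to -0.18. Upk3b cells alone overlapped stroma, at ratios of 5.11 to 32.7, and Rgs5 cells ran from 0.505 to 10.3. No p-value is given, since the ratio is a sum over the genes of the list.

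**Figure D3:**
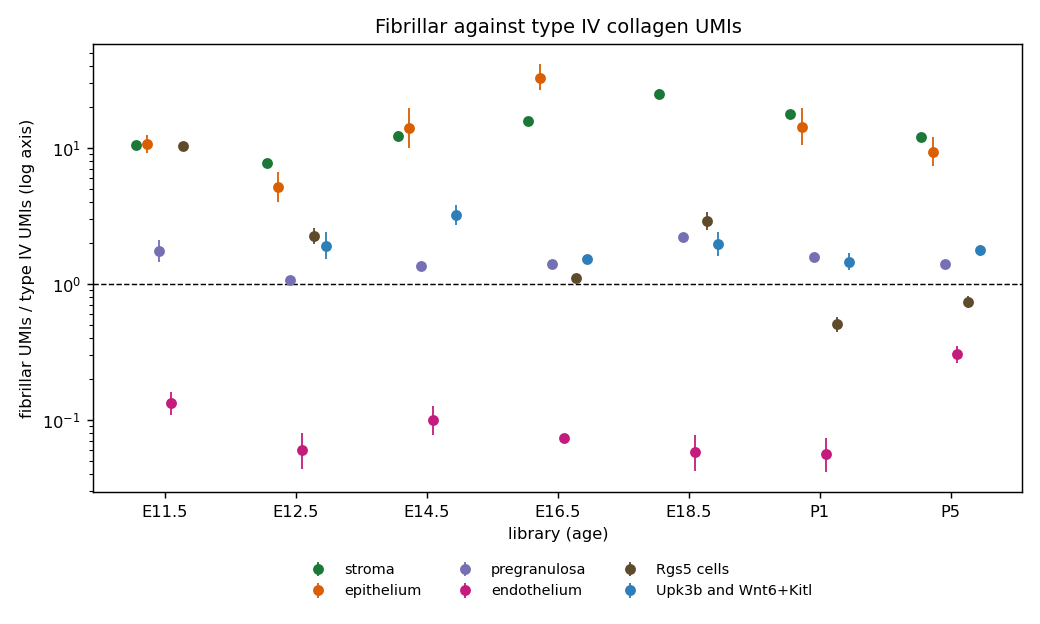
Ratio of fibrillar to type IV collagen UMIs by library (age) in 6 cell classes on a log axis, with 95% intervals from counting and a dashed line at equal numbers. All 7 stromal points lie between 7.70 and 25.0 and all 7 endothelial points between 0.0557 and 0.303, with pregranulosa cells just above 1.

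Type VI collagen, whose beaded filaments link fibrils and cell surfaces, was higher in stroma than in pregranulosa cells and endothelium. In Upk3b cells alone, with Col6a1 at 9.32 to 444 CPM, 3 of the 6 type VI genes were called lower than in stroma, and in Rgs5 cells 1 was. Among all genes tested 4.61% and 1.52% were called lower in these classes. Col6a1 was at 12.1, 82.4, 159, 572, 343, 389 and 481 CPM in stroma from E11.5 to P5, Col6a2 ran from 8.57 to 571 CPM and Col6a3 from 6.38 to 300.5 CPM, each lowest at E11.5 and highest at E16.5. Without E16.5 the highest stromal values were 481, 408 and 182.5 CPM, all from P5. All 6 type VI genes were tested and all 6 were called lower than stroma in pregranulosa cells and in endothelium, beside 12.52% and 15.1% of all genes. Pregranulosa cells nonetheless kept Col6a1 at 6.13 to 87.3 CPM, with a log2 difference of -2.20 ± 0.31 (edgeR adjusted p = 9.59e-07), whereas Col6a3, the chain that joins Col6a1 and Col6a2 in the common form, was lower by more (-5.35 ± 0.30, edgeR adjusted p = 2.24e-13). The ratio of Col6a1 to Col6a3 UMIs was thus 1.88 to 3.01 in stroma and 7.89 to 49.4 in the 6 pregranulosa sums from E12.5 on, at E11.5 with no Col6a3 UMI. Col6a4, Col6a5 and Col6a6 stayed at or below 43.9 CPM in stroma (22.0 CPM without E16.5).

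Among the fibril-associated collagens, Col12a1, Col9a2 and Col9a1 did not pass the test between pregranulosa cells and stroma, and Col14a1 and Col16a1 did. Col12a1, which binds the surface of type I fibrils, was at 9.53, 17.5, 22.5, 84.0, 55.9, 50.5 and 95.1 CPM in stroma and at 8.96, 51.7, 58.4, 61.6, 68.4, 16.9 and 21.7 CPM in pregranulosa cells, so that pregranulosa cells were higher at E12.5, E14.5 and E18.5 and stroma in the other 4 libraries (log2 difference -0.09 ± 0.41, edgeR adjusted p = 0.881). Col9a2, a type IX chain best known from cartilage, was at 4.68 to 78.1 CPM in stroma and 13.1 to 62.1 CPM in pregranulosa cells. Its partner Col9a3 reached 41.9 CPM in pregranulosa cells at E12.5 alone and was at or below 3.65 CPM in the other 6 pregranulosa sums. Col16a1 was at 1.42 to 87.0 CPM in stroma (at most 45.3 without E16.5) and was lower in pregranulosa cells by a log2 difference of -3.58 ± 0.29 (edgeR adjusted p = 9.13e-11).

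Col8a1, a short-chain network collagen known from vessels and the cornea, was the second collagen gene called higher in pregranulosa cells. It was at 0.943, 0.247, 0.818, 9.46, 15.7, 33.6 and 41.4 CPM there and at 8.22, 1.59, 0.441, 0.424, 0, 0.956 and 1.69 CPM in stroma, so that stroma was higher at E11.5 and E12.5 and pregranulosa cells from E14.5 on. Averaged over libraries the log2 difference was 2.77 ± 0.76 (edgeR adjusted p = 0.00363). A Col8a1 UMI was present in 16.2% of pregranulosa cells at P5, and in at most 0.978% of germ cells in any library. Its relative Col8a2 was instead lower in pregranulosa cells than in stroma (log2 difference -3.999 ± 0.48, edgeR adjusted p = 1.08e-07), with 1.63 to 48.6 CPM in stroma.

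The transmembrane collagens Col13a1, Col23a1 and Col25a1 were in stroma at 6.54 to 45.7, 7.51 to 29.6 and 10.2 to 60.5 CPM (Col13a1 at most 29.1 and Col25a1 at most 34.2 without E16.5). All 3 were called lower in pregranulosa cells, beside 12.52% of all genes. Rgs5 cells carried Col25a1 at 3.55 to 102.5 CPM, highest at E18.5, without passing the test against stroma (log2 difference 0.14 ± 0.37, edgeR adjusted p = 0.927). In endothelium the test was not passed by Col13a1 (3.73 to 39.5 CPM, log2 difference -0.22 ± 0.47, edgeR adjusted p = 0.741) or Col23a1 (0 to 28.8 CPM, -0.41 ± 0.36, edgeR adjusted p = 0.387), and Col25a1 was lower (-2.78 ± 0.45, edgeR adjusted p = 9.71e-06). Col26a1, a collagen first described in testis and ovary, stayed between 59.2 and 92.0 CPM in stroma and was lower in pregranulosa cells (9.09 to 17.9 CPM) and endothelium (1.76 to 15.2 CPM) without overlap. Col7a1, the anchoring fibril collagen, did not exceed 11.7 CPM in stroma (8.72 CPM without E16.5).

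Upk3b cells differed according to the other gates they passed. Cells in the Upk3b gate alone were 156 of 426 in the gate at E11.5, 63 of 389 at E12.5, 86 of 337 at E14.5, 24 of 503 at E16.5, 30 of 133 at P1 and 34 of 183 at P5. At E11.5 and at E12.5 260 cells passed both the Upk3b and the stroma gates, and these were left out. The comparisons therefore describe a part of the Upk3b cells and not the surface epithelium as a whole. Cells in the Upk3b gate alone (24 to 156 cells in the 6 sums used) carried Col1a1 at 253, 29.0, 213, 2827, 488 and 494 CPM and Col3a1 at 453, 208, 364, 3973, 949 and 1179 CPM in the 6 libraries in order of age, with no sum at E18.5, and the E16.5 values rest on 24 cells. Against stroma neither passed the test (log2 difference of Col1a1 -0.97 ± 0.50, edgeR adjusted p = 0.206, and of Col3a1 -0.43 ± 0.35, edgeR adjusted p = 0.461), and Col18a1, at 73.1 to 299 CPM, was the only collagen gene called higher (2.32 ± 0.43, edgeR adjusted p = 0.000371). In all, 1 gene was higher and 14 were lower than in stroma, against 5.76% and 4.61% of genes tested, and 1 and 10 without E16.5. The lower count fell to 8 without E14.5, 7 without P1 and 9 without P5. Against pregranulosa cells 13 were higher and 2 lower, against 7.58% and 6.67%, led by Col1a1 (4.67 ± 0.55, edgeR adjusted p = 5.31e-07) and Col14a1 (4.62 ± 0.84, edgeR adjusted p = 0.000195). Without E16.5 these counts were 9 and 1. Col14a1 had 0 UMIs in 2 of the 6 sums of Upk3b cells alone and was highest in the 24 cells of E16.5 (352.9 CPM). With at least 50 cells a sum its difference turned to -1.32 (edgeR adjusted p = 0.616).

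Cells that passed both the Upk3b gate and the Wnt6 and Kitl gate (66 to 332 cells in 6 sums) had fewer fibrillar transcripts. Their Col1a1 was at 4.32 to 45.3 CPM and their Col3a1 at 89.9 to 331 CPM, and for both genes the doubly gated cells had the lower level in each of the 5 libraries with sums of both kinds. Col4a1 ran the other way, with 29.0 to 145 CPM in the doubly gated cells and 19.5 to 101 CPM in Upk3b cells alone, and was higher in the doubly gated cells in all 5. Their ratio of fibrillar to type IV UMIs was 1.46 to 3.21, against 5.11 to 32.7 in Upk3b cells alone. With these cells as the epithelium, an alternative chosen after the data had been seen, 0 collagen genes were higher and 24 lower than in stroma. The share of all genes called in that fit was not taken, so these counts have nothing to be judged against. In Upk3b cells alone the stromal markers summed to 107 to 289 CPM (4 or 5 of 5 with UMIs, against 179 to 1062 CPM in stroma and 66.1 to 144 CPM in doubly gated cells), and their part in the fibrillar levels was not tested. Doubly gated cells were also deeper, with medians of 10613 to 19246 UMIs per cell against 6533.5 to 11503 in Upk3b cells alone. The part of depth, or of droplets that held several cells, in these differences was not tested. Col6a1 was at 1.73 to 140.0 CPM in the doubly gated cells up to P1 and at 459.8 CPM at P5, where Upk3b cells alone had 394.9 CPM.

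**Figure D4:**
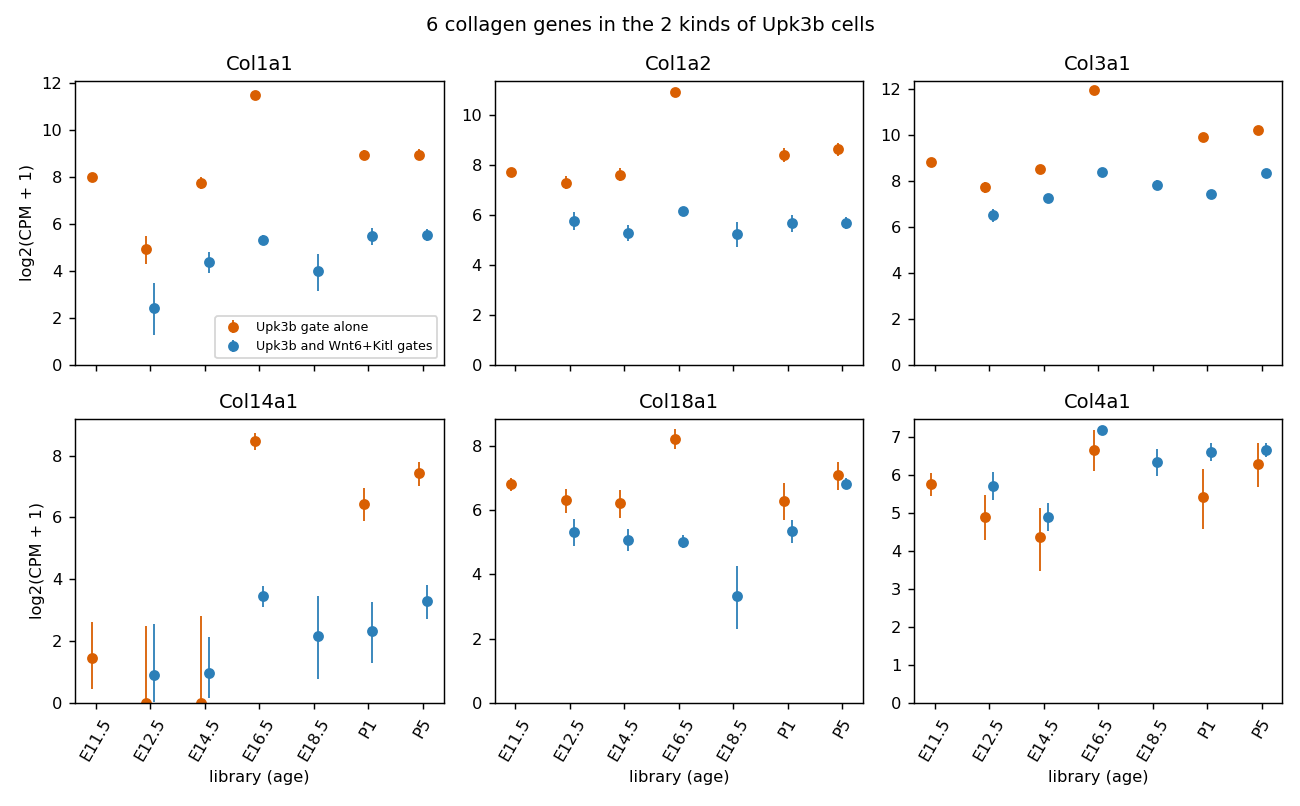
Levels of 6 collagen genes, as log2(CPM + 1) of summed UMIs with 95% intervals from counting, by library (age) in cells of the Upk3b gate alone and in cells of both the Upk3b and the Wnt6 and Kitl gates. Col1a1, Col1a2 and Col3a1 were higher in the Upk3b gate alone in every library with both kinds of cell, and Col4a1 was lower there in every such library (19.5 to 101 CPM against 29.0 to 145 CPM).

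Rgs5 cells carried fibrillar and type IV transcripts side by side. They carried Col4a1 at 94.96, 210, 2251, 898, 1222 and 1085 CPM and Col1a2 at 414, 407, 1287, 1140, 566 and 623 CPM in the 6 libraries in order of age, with no sum at E14.5. Against stroma Col4a1 (log2 difference 2.87 ± 0.30, edgeR adjusted p = 4.59e-07) and Col4a2 (2.56 ± 0.29, edgeR adjusted p = 1.75e-06) were higher and Col6a2, Col9a2, Col23a1 and Col26a1 lower, 2 and 4 genes against 3.93% and 1.52% of genes tested. Without E16.5 2 were higher and 2 lower, and the lower count was 2 without E18.5 and 1 without P1 or P5. At E11.5, where Cspg4 and Kcnj8 were low, the ratio of fibrillar to type IV UMIs was 10.3, near that of stroma, and at P1 and P5 it was 0.505 and 0.736. Without the E11.5 library 3 genes were higher, Col18a1 with them (log2 difference 1.72 ± 0.48, edgeR adjusted p = 0.0167), and 10 were lower, among them Col1a1 (-1.77 ± 0.52, edgeR adjusted p = 0.0221) and Col3a1 (-1.29 ± 0.37, edgeR adjusted p = 0.0205).

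Age was tested as a linear trend over the order of the 7 libraries within a class. In stroma 33 of the 44 genes passed the filter, and 5 rose and 0 fell, against 3.995% rising and 2.74% falling among all 12665 genes. The genes that rose were Col4a4 (log2 slope per step of age 1.25 ± 0.20, edgeR adjusted p = 0.00732), Col4a3 (1.00 ± 0.15, edgeR adjusted p = 0.00468), Col9a2 (0.75 ± 0.16, edgeR adjusted p = 0.0263), Col12a1 (0.54 ± 0.10, edgeR adjusted p = 0.0161) and Col1a2 (0.49 ± 0.11, edgeR adjusted p = 0.0259). Col3a1 and Col1a1 had slopes of 0.51 ± 0.14 and 0.56 ± 0.17 and did not pass (edgeR adjusted p = 0.0640 and 0.0758). Without E16.5 18 genes rose, among them Col1a1, Col3a1, Col5a1, Col5a2, Col4a1, Col4a2 and Col6a1 to Col6a5, and the slopes of Col3a1 and Col1a1 were 0.51 ± 0.09 (edgeR adjusted p = 0.00924) and 0.56 ± 0.11 (edgeR adjusted p = 0.0171). The share of all genes rising in that fit was not taken, so the larger count cannot be read as a result about collagens. Without E11.5 only Col4a4 and Col4a3 rose, and Col1a2, Col9a2 and Col12a1 no longer passed (edgeR adjusted p = 0.146, 0.187 and 0.123). The count also moved without E12.5 (2 rising), P1 (3) and P5 (8). In the falling direction 1 gene, Col18a1, had an unadjusted p under 0.05 (log2 slope -0.32 ± 0.09, edgeR adjusted p = 0.0668), and DESeq2 called 1. Markers of other cell types moved with age in the same stromal sums. Of the 5 pregranulosa markers Foxl2 rose (1.66 ± 0.21, edgeR adjusted p = 0.00278), from 0.0459 CPM at E11.5 to 169 CPM at P5, and Irx3 fell, and the list summed to 140 to 412 CPM. Of the 3 epithelial markers tested Krt19 and Lrrn4 fell (list 4.30 to 47.5 CPM), of the 5 pericyte markers Acta2 rose (list 193 to 774 CPM), and 0 of 4 endothelial markers were called (list 9.92 to 72.4 CPM). Among gate genes of other classes Cdh5 rose, to 5.59 CPM at P5, and Rgs5 fell, to 2.08 CPM, and of the 5 haemoglobin genes Hba-a1 and Hba-a2 rose and Hbb-y fell. Their part in the collagen trends was not tested.

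In pregranulosa cells 31 genes were tested, and Col8a1 (1.34 ± 0.18, edgeR adjusted p = 0.00584) and Col4a4 (0.79 ± 0.14, edgeR adjusted p = 0.0149) rose, against 2.11% rising and 1.55% falling among all genes. Col4a4 stayed low in this class throughout, at most at 4.09 CPM. Without E16.5 Col4a1 and Col6a3 rose as well, and without P5 only 1 gene did. Of the falling direction, in which edgeR called 0, 3 genes had an unadjusted p under 0.05 and DESeq2 called 2. The 5 markers of mesonephric tubules summed to 127 to 345 CPM in this class and 30.1 to 93.1 CPM in stroma, with Emx2 (89.5 to 235 CPM) and Epcam (16.3 to 89.6 CPM) at the highest levels, and the 4 of them tested between the 2 classes were all higher in pregranulosa cells. Over age Pax2 (-1.62 ± 0.18, edgeR adjusted p = 0.00304, with 0 UMIs at P5), Cdh16 (-0.67 ± 0.16, edgeR adjusted p = 0.0485) and the epithelial marker Lrrn4 (-1.02 ± 0.18, edgeR adjusted p = 0.0151) fell in this class and Foxl2 rose (0.74 ± 0.17, edgeR adjusted p = 0.0498), and their part in the collagen values was not tested. In endothelium 9 genes were tested, and Col1a2 (0.60 ± 0.13, edgeR adjusted p = 0.0120) and Col3a1 (0.53 ± 0.12, edgeR adjusted p = 0.0198) rose, against 4.04% rising and 2.49% falling among all genes, and without the P5 library, whose 35 cells held the high fibrillar values described, 0 did. Without E12.5 1 rose.

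The test of the difference in slope between classes of the same libraries gave 3 genes with a higher and 2 with a lower slope in pregranulosa cells than in stroma, out of 39 tested, against 2.03% and 2.30% of all genes. Col18a1 had a slope of 0.34 in pregranulosa cells and -0.32 in stroma, neither called by itself (edgeR adjusted p = 0.0971 and 0.0668), and a difference of 0.69 ± 0.07 (edgeR adjusted p = 0.00210), and this difference was called under each of the 17 alternatives tried. Col8a1 differed by 1.38 ± 0.26 (edgeR adjusted p = 0.0220), Col4a5 by 0.35 ± 0.08 (edgeR adjusted p = 0.0455), Col6a1 by -0.29 ± 0.06 (edgeR adjusted p = 0.0338) and Col5a1 by -0.42 ± 0.09 (edgeR adjusted p = 0.0286). Without E16.5 the differences were 0.69 for Col18a1, 1.44 for Col8a1, -0.29 for Col6a1 and -0.43 for Col5a1, all still called, and 0.35 for Col4a5, which no longer passed (edgeR adjusted p = 0.0667). Between endothelium and stroma 2 of 32 genes had a higher and 2 a lower slope, against 2.13% and 1.81%. Col15a1, at 142 CPM at E11.5 and 58.1 CPM at P5 in endothelium and at 0.253 and 27.7 CPM in stroma, differed by -1.07 ± 0.17 (edgeR adjusted p = 0.00323) and was also called under all 17 alternatives (-1.07 without E16.5). The higher slopes of Col6a6 and Col14a1 in endothelium rest on at most 5 UMIs in any endothelial library, and neither remained without E11.5, E12.5, E16.5 or P1.

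**Figure D5:**
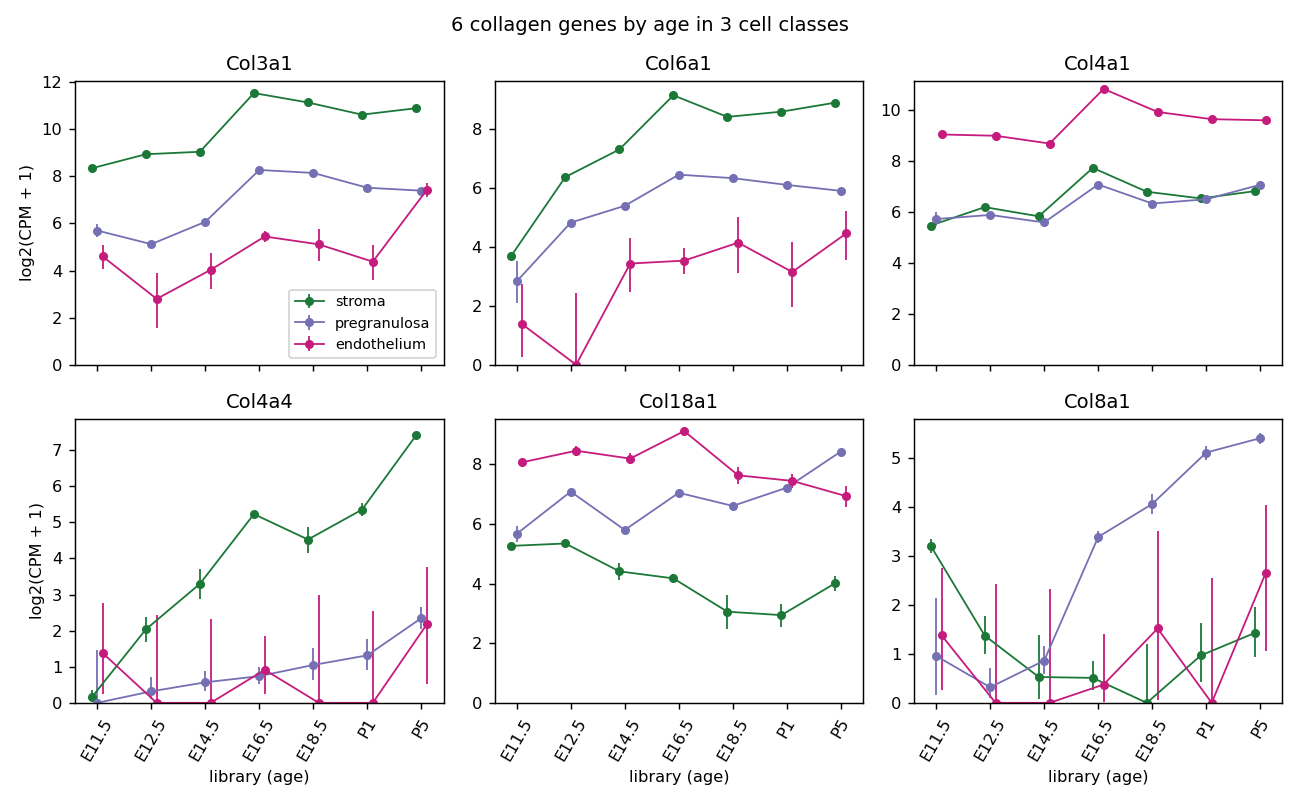
Levels of 6 collagen genes in stroma, pregranulosa cells and endothelium by library (age), as log2(CPM + 1) of summed UMIs with 95% intervals from counting, lines joining the libraries of a class. Col4a4 reaches 169 CPM in stroma at P5 and at most 4.09 CPM in the other classes, and for Col18a1 pregranulosa cells reach 345 CPM at P5 while stroma stays at or below 39.7 CPM in all libraries.

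The proteins that process and surround collagen were looked at as fixed lists, whose counts stand beside 12.1% higher and 12.52% lower of all genes in pregranulosa cells and 11.8% and 15.1% in endothelium. Of 10 genes tested for propeptide cleavage and cross-linking, 7 were lower and 0 higher in pregranulosa cells than in stroma, led by Lox, the lysyl oxidase that cross-links fibrils (log2 difference -5.20 ± 0.46, edgeR adjusted p = 5.05e-10). In endothelium 8 of the 10 were lower and 1 was higher, Pxdn, which cross-links type IV collagen (log2 difference 1.09). All 6 fibril proteoglycans and glycoproteins were lower in both classes, among them Dcn (decorin, -5.20 ± 0.49 in pregranulosa cells and -5.46 ± 0.54 in endothelium). Of the 18 genes for folding and hydroxylation, 5 were lower and 0 higher in pregranulosa cells, and 8 were lower and 2 higher in endothelium, the latter 11.1% of the list and near the share of all genes.

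Of the 12 basement membrane partners, 4 were higher and 1 lower in endothelium than in stroma, with Lama4, the laminin chain of vessels, at a log2 difference of 3.22 ± 0.38 and Hspg2 (perlecan) at 2.71 ± 0.21, whereas Lama2 was at -4.62 ± 0.62. In pregranulosa cells 3 of the 12 were higher and 5 lower (25% and 41.7%). Of 6 collagen receptors tested, 1 was higher in endothelium (16.7%, near the 11.8% of all genes), Itga2 (log2 difference 7.19 ± 0.47, edgeR adjusted p = 1.02e-12), and Ddr2, which binds fibrillar collagen, was lower in both classes (-4.60 ± 0.33 in pregranulosa cells and -5.40 ± 0.55 in endothelium). The list of collagen breakdown holds Mmp enzymes and the Timp genes that inhibit them. Of its 5 genes tested 3 were lower in each class, with Mmp2 at -4.57 ± 0.46 in pregranulosa cells, and 1 (20%) was higher in endothelium. In Rgs5 cells, where 3.93% of all genes were higher and 1.52% lower, the lists held few calls, with Itga1 (3.45 ± 0.44), Lama4 (1.51 ± 0.42) and Postn (1.73 ± 0.47) higher and Dcn, Lum and Mmp2 lower, and 0 of the 18 folding genes and 0 of the 10 cross-linking genes called by edgeR (2 and 4 at an unadjusted p under 0.05). In Upk3b cells alone against pregranulosa cells 5 of the 10 cross-linking genes were higher, Lox by 5.24 ± 0.56, and 5 of the 6 proteoglycans, Dcn by 5.06 ± 0.50. Among all genes 7.58% were higher in that comparison. In the stromal age trend 4 of the 10 cross-linking genes rose (Lox, Loxl1, Adamts2 and Pcolce) and 3 of the 6 proteoglycans (Dcn, Bgn and Lum), and 0 of either list fell, beside 3.995% rising and 2.74% falling of all genes. The rise was not particular to these lists. Of the 12 basement membrane partners 4 rose and 1, Lama5, fell. Of the breakdown list 2 of 5 rose, of the folding list 2 of 18 and of the receptors 1 of 6, and 0 of these fell.

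Counted over all cells, stroma held 22.8% to 52.9% of a library's collagen UMIs in 6.55% to 43.1% of its cells, and endothelium 0.845% to 3.24% in 0.569% to 1.44%. Pregranulosa cells held 0.773% to 25.9% in 2.39% to 37.1% of cells, and at E14.5 more than stroma (25.9% against 22.8%). Rgs5 cells held 0.163% to 13.8%, the most at E11.5. Cells of both the Upk3b and the Wnt6 and Kitl gates held 0.0703% to 3.01%. Cells in no class, the other multiply gated cells that were left out included, held 22.3% to 50.1%. Levels given by class therefore leave out a part of each library's collagen transcripts.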

How the data were processed

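Single cells from 7 libraries, 1 per age, had been counted by the authors with Cell Ranger 3.1.0 on the mouse mm10 reference, and the matrices of UMI counts per gene and cell barcode were used as deposited by the authors, raw and not normalized. Cells with at least 200 genes were kept, and UMI counts were summed by library and gated class (at least 3 UMIs summed over the gate genes of a class, at least 20 cells a sum). No doublet caller was run. Cells in several gates were left out as stated, and 1 alternative left out the 5% of cells with the most UMIs. CPM were computed from the sums, with 95% exact Poisson intervals, and shares of cells also after thinning to 2000 UMIs. Depth was 31960736 to 124390521 UMIs per library.

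Sums were compared with the edgeR 4.0.16 quasi-likelihood test (R 4.3.3, TMM factors, filterByExpr), for classes with the library as a block and all 5 somatic classes in the fit, and for age with a linear trend over the 7 libraries or its interaction with class. Adjusted p-values are Benjamini-Hochberg values over all genes tested, and a call needed an adjusted p under 0.05 and, between classes, a fold of at least 2. The tests were tested on simulated counts. Of genes changed by 1 on the log2 scale between pregranulosa cells and stroma 99% had an adjusted p under 0.05 (11872 genes tested). The fold rule was not applied there, and the median estimated size was 1.0, so this is not the share that would be called. With a stromal slope of 0.25 or 0.5 per step of age 26% and 99% had an adjusted p under 0.05 (12953 genes tested). The simulated spread was set beforehand and was not taken from these sums. The cells of a library are not replicates, and its pooled gonads or ovaries were not separated. For the age trend within a class the spread is therefore that between single libraries of different age. Between classes the library block takes out what the classes of a library share. The spread is then that of the class differences over the libraries, and includes any change of those differences with age.

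The collagen genes and the lists were chosen with earlier results of these data known. A collagen gene was named with values when it reached 10 CPM in at least 1 class of 1 library, and from each other list up to 4 called genes with the largest fold. Alternatives were DESeq2 1.42.0, other size factors, no low-count filter, gates of 2 or 5 UMIs, cells counted in every gate they pass, only cells of 1000 or more genes with no more than 10% of UMIs mitochondrial, at least 50 cells a sum, haemoglobin and mitochondrial genes left out, and each library left out in turn. Doubly gated Upk3b cells as the epithelium were added after the data had been seen. Positions are from GENCODE on GRCm38.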

Additional observations from a re-analysis of the deposited data

Results flagged for a closer look

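The slope with age differed between pregranulosa cells and stroma of the same libraries, by the interaction of class with age in edgeR, for 5 collagen genes, each with the difference given as pregranulosa minus stroma on the log2 scale per step of age. Col8a1 differed by 1.38, Col18a1 by 0.69, Col4a5 by 0.35, Col6a1 by -0.29 and Col5a1 by -0.42.

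Between endothelium and stroma 4 genes differed in slope, given as endothelium minus stroma. Col15a1 differed by -1.07 and Col5a2 by -0.46, with Col5a2 at 22.4 to 75.95 CPM in endothelium and 38.1 to 338 CPM in stroma. Col6a6 differed by 1.72 and Col14a1 by 1.05, both on 0 to 5 UMIs per endothelial library.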

How the results depend on the processing

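Between ages, no paired analysis was possible because each age is 1 library, whereas classes were compared within libraries. Of the counts of calls and mean ratios, 198 of 243 values under other settings stayed within 1.5 times the count, or within 1 SD of the ratio, and 130 of 173 with a library left out. Of the single genes called, 1020 of 1118 kept direction and call under other settings, 90 no longer passed and 8 turned direction, and with a library left out 650 of 755 kept both and 105 no longer passed. For the changes below the cause was not tested, beyond the fewer cells, sums or genes that a setting leaves. The share of all genes called was not taken under these settings, so the counts below have no such share beside them. What limits the data is the small classes (24 to 156 epithelial and 29 to 155 endothelial cells a sum), 1 library per age, and classes defined by 1 or 2 genes each.

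Under DESeq2 the stromal trend had 16 rising and 1 falling, the pregranulosa trend 10 and 2, and the slope difference was lower for 5 genes in pregranulosa cells and higher for 0 in endothelium. With gates of 2 UMIs 5 genes were lower in epithelium and 1 in Rgs5 cells than in stroma, 6 were higher and 0 lower in epithelium than in pregranulosa cells, 1 fell in stroma, 4 rose in pregranulosa cells and 4 in endothelium, and 0 had a higher slope in endothelium. With gates of 5 UMIs 0 rose in endothelium, and 0 had a higher and 5 a lower slope there. With cells counted in every gate they pass, 0 genes were higher and 23 lower in epithelium than in stroma, 6 higher than in pregranulosa cells, 10 rose in stroma, 1 fell in pregranulosa cells, 6 had a lower slope in pregranulosa cells and 1 a higher slope in endothelium, and the mean log2 ratio of epithelium was 2.17. With only cells of 1000 or more genes with no more than 10% of UMIs mitochondrial 1 gene had a lower slope in pregranulosa cells. Without the 5% of cells with most UMIs 1 fell in stroma, 0 rose in endothelium, 0 had a higher and 1 a lower slope there, and the slope difference of Col6a6 turned to -1.67. With at least 50 cells a sum 8 were lower in epithelium than in stroma, 7 higher and 0 lower than in pregranulosa cells, 1 had a higher and 11 a lower slope in endothelium, Col6a6 turned to -1.59 and Col14a1 in epithelium against pregranulosa cells to -1.32. With no low-count filter 8 were lower in Rgs5 cells, 3 fell in stroma and 2 in pregranulosa cells. With Col15a1 and Col18a1 counted as basement membrane types the mean log2 ratio was 2.71 in epithelium and -0.18 in pregranulosa cells.

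With doubly gated cells as the epithelium, chosen after the data had been seen, 0 were higher and 24 lower than in stroma, 3 higher and 4 lower than in pregranulosa cells, and the mean log2 ratio was 0.92. Against pregranulosa cells Col5a2 (-0.47), Col5a1 (-0.30), Col4a4 (-0.25), Col6a3 (-0.20) and Col27a1 (-0.20) turned direction.

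With each library left out in turn, the higher and lower counts against stroma ran over 1 to 1 and 7 to 16 in epithelium, 2 to 2 and 20 to 25 in pregranulosa cells, 4 to 4 and 24 to 27 in endothelium and 2 to 3 and 1 to 10 in Rgs5 cells, and over 9 to 13 and 1 to 2 for epithelium against pregranulosa cells. Rising and falling counts ran over 2 to 18 and 0 to 2 in stroma, 1 to 4 and 0 to 2 in pregranulosa cells and 0 to 3 and 0 to 1 in endothelium. Higher and lower slopes than in stroma ran over 1 to 3 and 0 to 2 in pregranulosa cells (1 higher without E12.5 or P1, 0 lower without E12.5, E14.5 or P1) and 0 to 2 and 1 to 6 in endothelium (6 lower without P5, 1 without E11.5). Mean log2 ratios ran over 3.61 to 3.89 in stroma, 3.32 to 3.85 in epithelium, 0.49 to 0.67 in pregranulosa cells, -3.73 to -3.32 in endothelium and 0.28 to 1.15 in Rgs5 cells.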

Other observations

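Germ cells, which entered no comparison, carried few collagen transcripts, 97.4 to 244 CPM over all collagen genes against 1155 to 10170 CPM in stroma. In the 60 germ cells of P5 the 4 highest collagens were Col6a6, Col9a3, Col3a1 and Col25a1, of which Col3a1 was at 26.6 CPM, as against 1896 CPM in stroma of that library. Col6a6 was at 47.7 CPM there, with a UMI in 76.7% of cells, beside 0.509 to 2.25 CPM in germ cells from E12.5 to E18.5 and 16.9 CPM at P1. Col9a3 was at 27.2 CPM at P5 (56.7% of cells), 16.7 CPM at P1 and at most 1.97 CPM earlier. Col25a1 was at 26.0 CPM at P5 (63.3% of cells), 16.2 CPM at P1 and at most 2.26 CPM earlier. At P5 the levels of Col6a6 in pregranulosa cells and stroma were 6.76 and 9.24 CPM. Each of these ages is 1 library, and no test was made.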
